A study of Mus musculus with 6 samples.

Results

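Regulators of the primitive streak and of the mesoderm that leaves it were examined in mouse embryos that lack 2 related Wnt receptors. The set comprised 9 transcription factor genes, T, Eomes, Mixl1, Evx1, Nkx1-2, Gsc, Mesp1, Msgn1 and Tbx6, listed by name. A gene was measured where the annotation of the array gave a probe set that symbol and no other, which was the case for 8 of the 9 genes, with 11 probe sets, among 18193 genes in all. No probe set carried the symbol T in the annotation used, so Brachyury, the product of T, was not analysed here. Each gene is represented by its brightest probe set, averaged over all 6 arrays.

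RNA came from whole embryos at embryonic day 8.5 on a mixed C57BL6/129 background, with the sexes mixed. The double knockout group was Fz2-/-; Fz7-/- and the single knockout group was Fz2+/+; Fz7-/-, with 3 arrays each, numbered as replicates 1 to 3. Both groups thus lacked Fz7 (gene symbol Fzd7), and the comparison asked what loss of Fz2 (Fzd2) adds. Embryos with intact Fz7 were not analysed here, and the labels do not say whether an array held 1 embryo or a pool, or whether replicates were separate litters, and p-values therefore reflect only how these arrays vary, in part perhaps for technical reasons.

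The primitive streak is the site where epiblast cells leave their epithelium and become mesoderm and endoderm. Wnt, Nodal and BMP signals induce it, and Wnt signalling through beta-catenin then keeps its remnant, the tailbud, supplying cells to the growing trunk. T-box factors (T, Eomes, Tbx6), homeodomain factors (Mixl1, Evx1, Nkx1-2, Gsc) and basic helix-loop-helix factors (Mesp1, Msgn1) carry out successive steps, from entry into the streak to the choice between heart, somite and other mesoderm.

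No regulator of the set passed the test for a difference between the genotypes. All values are log2 RMA (robust multi-array average) values made by the authors, and differences are double minus single knockout on that scale, with a limma adjusted p threshold of 0.05 over all genes. The count was 0 of 8 genes, where 0.00550% of all genes (1 gene, Fzd2) passed, and at an unadjusted p under 0.05 it was also 0 of 8, against 902 of 18193 genes. The measured pattern was instead a wide spread among the double knockout arrays, replicate 1 included. Double knockout replicate 1 was above all 5 other arrays for 7 of 8 regulators, where the same held for 25.3% of all genes, and it was more than 0.5 log2 units above all of them for 3 of 8, against 2.09% of all genes. Double knockout replicate 2 was below all 5 other arrays for 5 of 8, against 17.5% of all genes.

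Some facts about the arrays bear on each value given here. Fzd2 read 7.30, 7.69 and 7.63 in replicates 1 to 3 of the double knockout, against 9.86, 9.99 and 10.01 in the single knockout, so the arrays separate as labelled. Fzd7 read 4.81 to 4.996 in the double knockout and 4.92 to 4.93 in the single knockout, on a probe set whose place relative to the deleted part is not known, so it checks nothing. Double knockout replicate 1 stood apart, with correlations across genes of 0.987 to 0.990 with the other arrays, which correlated at 0.997 to 0.998 with each other. It was the highest array for 5 of 6 epiblast, 6 of 6 visceral endoderm and 2 of 4 measured germ cell markers. It was the lowest for 4 of 4 measured primitive red cell markers, 6 of 6 neural plate markers and 5 of 5 heart muscle markers. The share of all genes lowest in this array was not counted. Results are therefore given with and without this array.

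**Figure D1:**
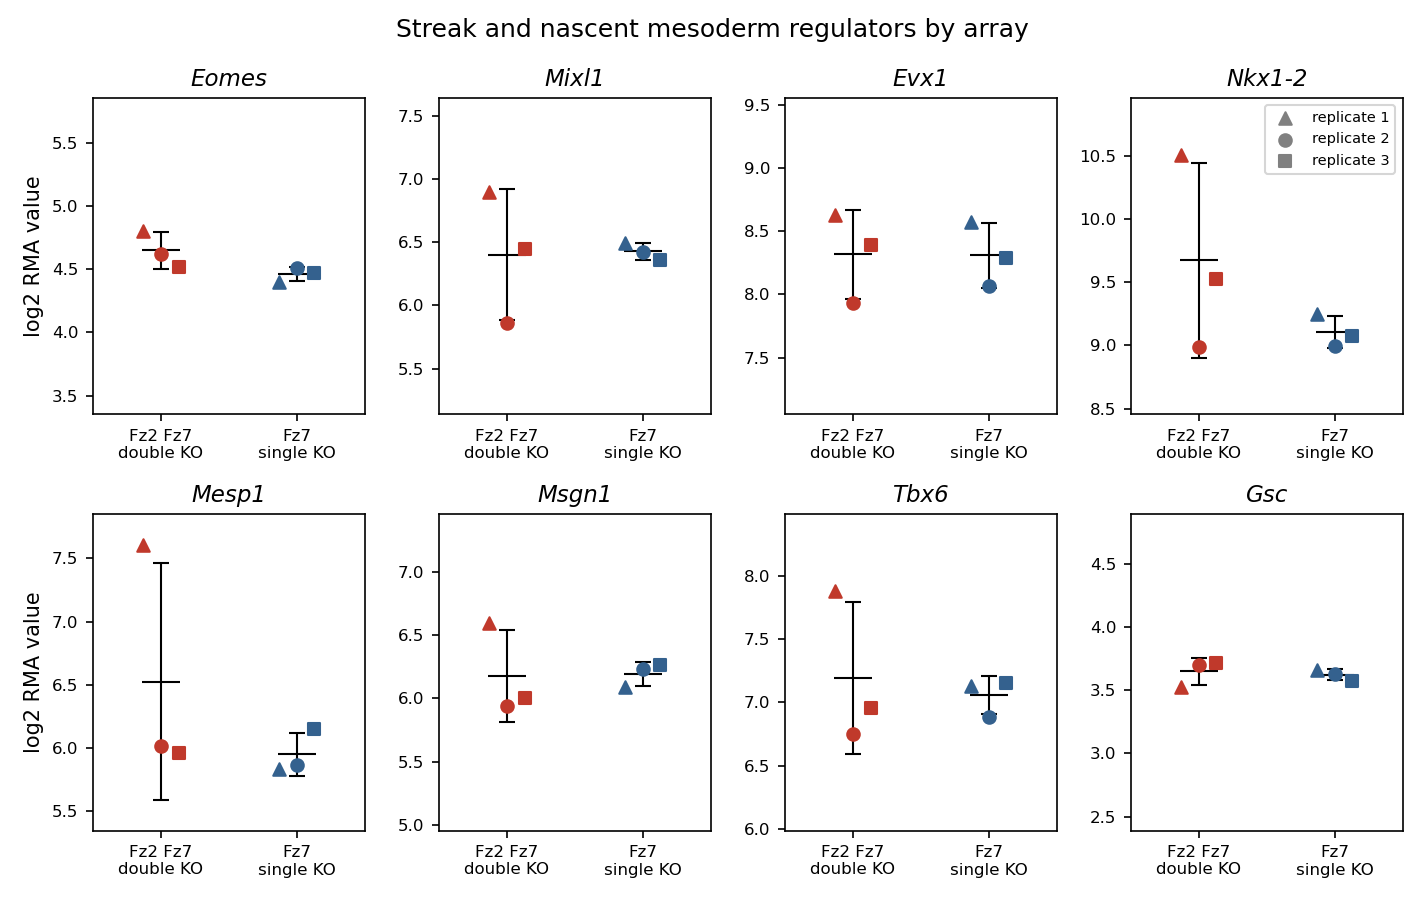
Log2 RMA value (y axis, the same height of scale in each panel) of the 8 measured regulators in each double knockout and single knockout array, with symbols for replicates 1 to 3, and the mean and SD of each group in black. Replicate 1 is the highest double knockout array in every panel except Gsc, whereas the single knockout arrays lie closer together.

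Among the T-box genes, Eomes drives the entry of epiblast cells into the streak and the formation of definitive endoderm and cardiac mesoderm, and is also expressed in trophoblast. It read 4.81, 4.62 and 4.52 in replicates 1 to 3 of the double knockout, against 4.40, 4.51 and 4.47 in the single knockout. It was the only regulator whose groups did not overlap with all 6 arrays, where 4.85% of all genes did not overlap with the double knockout higher and 6.60% with it lower. Of the 8 regulators 5 were below the median gene in brightness, and Eomes was a dim one, at percentile 20.2 of all genes. The double knockout lay higher by 0.19 (SE 0.09, 95% interval -0.02 to 0.39, limma adjusted p = 0.872), or by 0.11 without double knockout replicate 1 (95% interval -0.05 to 0.27), where the groups again did not overlap. The lowest double knockout value and the highest single knockout value were 4.52 and 4.51. A dimmer Eomes probe set read 4.42, 3.94 and 3.92 in the double knockout and 3.71, 3.90 and 4.07 in the single knockout, with overlapping groups and a difference of 0.20 (SE 0.16), or 0.04 (SE 0.11) without double knockout replicate 1. Of the trophoblast markers, 5 of 8 measured were highest in double knockout replicate 1 and 1, Elf5, was lowest. The summed level of all 8 in that array lay 0.75 above the single knockout mean, and lay at -0.06 and -0.07 in double knockout replicates 2 and 3. The part of trophoblast RNA in the Eomes value was not tested.

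Mixl1 encodes a paired-type homeodomain factor of the streak that is needed for orderly mesoderm and endoderm formation. It read 6.89, 5.86 and 6.45 in replicates 1 to 3 of the double knockout, against 6.49, 6.42 and 6.36 in the single knockout. The double knockout thus held both the highest and the lowest array, a span of 1.03, while the single knockout arrays lay within 0.13 of each other. The mean difference was -0.03 (SE 0.24, 95% interval -0.61 to 0.56, limma adjusted p = 0.988), and without double knockout replicate 1 it was -0.27 (95% interval -0.67 to 0.13).

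Evx1, a homeodomain factor of the proximal and posterior streak, read 8.62, 7.94 and 8.39 in replicates 1 to 3 of the double knockout, against 8.57, 8.06 and 8.29 in the single knockout. Here the single knockout varied as well, with SDs of 0.35 in the double knockout and 0.26 in the single knockout (n = 3 each). The difference was 0.01 (SE 0.20, 95% interval -0.48 to 0.50), and -0.14 without double knockout replicate 1. Of the 8 regulators, Evx1 had the widest spread within the single knockout.

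Nkx1-2 encodes a homeodomain factor of the epiblast beside the late streak, the region that holds progenitors of both spinal cord and mesoderm. It read 10.508, 8.989 and 9.522 in replicates 1 to 3 of the double knockout, against 9.247, 8.996 and 9.072 in the single knockout. Replicates 1 and 3 of the double knockout lay above every single knockout array, while replicate 2 lay just below all of them. The difference was 0.57 (SE 0.36, 95% interval -0.29 to 1.43, a 1.48-fold higher level, limma adjusted p = 0.872), and it was 0.15 (95% interval -0.24 to 0.54) without replicate 1. A dimmer probe set read 5.65, 4.85 and 4.95 in the double knockout and 4.85, 4.81 and 5.05 in the single knockout, again with replicate 1 highest. The dimmest read 4.79, 4.22 and 4.34 in the double knockout and 4.51, 4.43 and 4.50 in the single knockout. The 3 probe sets differed by 0.57, 0.25 and -0.03, so they did not share a direction, whereas replicate 1 was the highest array on each. Without replicate 1 they differed by 0.15, 0.0016 and -0.20.

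Gsc marks the organizer end of the streak and the prechordal mesoderm, where its product represses transcription. It read 3.53, 3.70 and 3.71 in replicates 1 to 3 of the double knockout, against 3.66, 3.63 and 3.57 in the single knockout. These values lie near the lowest of the whole table, 2.64, where RMA compresses differences, and the difference was 0.03 (SE 0.07, 95% interval -0.14 to 0.20). Gsc was the only regulator for which double knockout replicate 1 was the lowest array. Without that array the double knockout was higher by 0.09 (95% interval -0.06 to 0.23), with groups that did not overlap. In that setting 2 of 8 regulators, Eomes and Gsc, had the double knockout higher without overlap, as did 10.0% of all genes.

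Mesp1 and Msgn1, the basic helix-loop-helix genes, are expressed as cells leave the streak. Mesp1 marks nascent mesoderm, including the precursors of the heart, and Msgn1 acts in the presomitic mesoderm, where it promotes the departure of cells from the progenitor state. The 250 bases before the RefSeq transcription start of both genes (GRCm38.p6) are shown because these 2 were the only ones, of 8 genes of the set with a promoter in the RefSeq table, to hold the TCF/LEF letters CTTTGAT on either strand. TCF and LEF proteins bring beta-catenin to Wnt target genes. Capitals mark the match, at bases 31 to 25 before the start in the direction of transcription in Mesp1 and at bases 203 to 197, in reverse orientation, in Msgn1.
Mesp1 (chr7:79793591-79793840, minus strand): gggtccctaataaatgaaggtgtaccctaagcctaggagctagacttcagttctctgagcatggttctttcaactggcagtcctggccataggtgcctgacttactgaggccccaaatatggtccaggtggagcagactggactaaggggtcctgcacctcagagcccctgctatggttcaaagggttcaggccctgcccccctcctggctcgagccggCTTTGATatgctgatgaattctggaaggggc
Msgn1 (chr12:11208949-11209198, minus strand): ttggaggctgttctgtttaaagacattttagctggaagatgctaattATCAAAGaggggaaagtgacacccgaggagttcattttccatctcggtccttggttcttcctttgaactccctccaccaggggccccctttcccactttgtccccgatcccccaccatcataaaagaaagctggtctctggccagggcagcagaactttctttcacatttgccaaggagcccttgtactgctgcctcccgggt

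Of 32851 promoters of the same length in the table, 3.21% held these TCF/LEF letters. The T-box letters GGTGTGA, on either strand, were found in 0 of the 8 genes and in 3.33% of all promoters. A match is a description of the letters only, and a window without one says nothing of binding. The promoter of T was among the 8 searched, and the genes T, Eomes, Evx1, Nkx1-2, Tbx6 and Gsc held neither set of letters in this window. Mixl1 was not in the table.

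Mesp1 had the largest single deviation of the set. It read 7.61, 6.01 and 5.96 in replicates 1 to 3 of the double knockout, against 5.84, 5.87 and 6.15 in the single knockout. Replicate 1 lay 1.66 above the single knockout mean and 1.46 above the next highest array, while the other 5 arrays spanned 0.31. The group difference was 0.58 (SE 0.43, 95% interval -0.47 to 1.62, a 1.49-fold higher level, limma adjusted p = 0.872). Without replicate 1 it was 0.04 (95% interval -0.22 to 0.29), so 1 array carried the value.

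Msgn1 read 6.594, 5.940 and 6.001 in replicates 1 to 3 of the double knockout, against 6.087, 6.229 and 6.265 in the single knockout. Replicates 2 and 3 of the double knockout were lower than every single knockout array and replicate 1 was higher than every one. The difference with all arrays was -0.02 (SE 0.18, 95% interval -0.44 to 0.41, limma adjusted p = 0.989). Without replicate 1 it was -0.22 (SE 0.07, 95% interval -0.40 to -0.04), with an unadjusted limma p of 0.0228 and an adjusted p of 0.706. In that setting 6.67% of all genes had an unadjusted p under 0.05, and 1 of 8 regulators did. Groups did not overlap with the double knockout lower for 1 of 8 regulators, Msgn1, against 12.3% of all genes, a share near the background.

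Tbx6, a T-box factor that directs streak cells to paraxial mesoderm at the expense of neural fate, followed a similar order. It read 7.88, 6.75 and 6.96 in replicates 1 to 3 of the double knockout, against 7.13, 6.88 and 7.16 in the single knockout. Replicate 1 lay 0.72 above the next highest array and replicate 2 was the lowest of all. The difference was 0.14 (SE 0.29, 95% interval -0.55 to 0.83, limma adjusted p = 0.939) with all arrays and -0.20 (95% interval -0.47 to 0.06) without replicate 1.

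**Figure D2:**
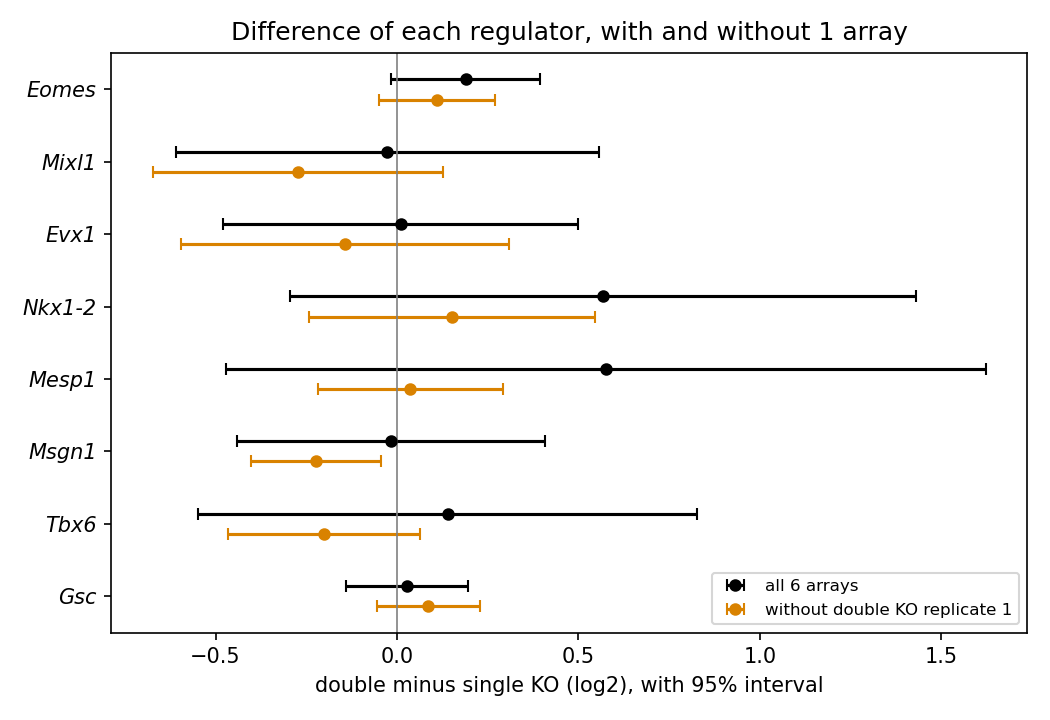
Difference between double and single knockout (x axis, log2) of the 8 measured regulators (y axis) with the 95% limma interval, with all 6 arrays in black and without double knockout replicate 1 in orange. With all arrays every interval includes 0. Without that array the interval of Msgn1, -0.40 to -0.04, does not, and no gene of the set passed after adjustment in either setting.

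Across the set, double knockout replicate 1 had a median deviation of 0.43 from the single knockout mean, where the median of all genes was -0.01. The median was -0.18 in double knockout replicate 2 and 0.04 in replicate 3, against -0.02 and 0.00 over all genes. Replicate 2 lay below replicate 3 for 6 of 8 regulators, with Mixl1 (0.59 apart), Nkx1-2 (0.53) and Evx1 (0.46) the farthest. The median SD of the regulators was 0.44 within the double knockout and 0.11 within the single knockout, where all genes had medians of 0.10 and 0.08. The double knockout SDs include replicate 1. For the other regulators replicates 2 and 3 lay closer, with replicate 3 minus replicate 2 at -0.10 for Eomes and -0.05 for Mesp1. It was 0.06 for Msgn1, 0.01 for Gsc and 0.21 for Tbx6. The median difference was 0.08 with all arrays and -0.05 without replicate 1, beside -0.01 over all genes in both settings. Regulators above 0 numbered 6 of 8 with all arrays and 4 of 8 without replicate 1.

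**Figure D3:**
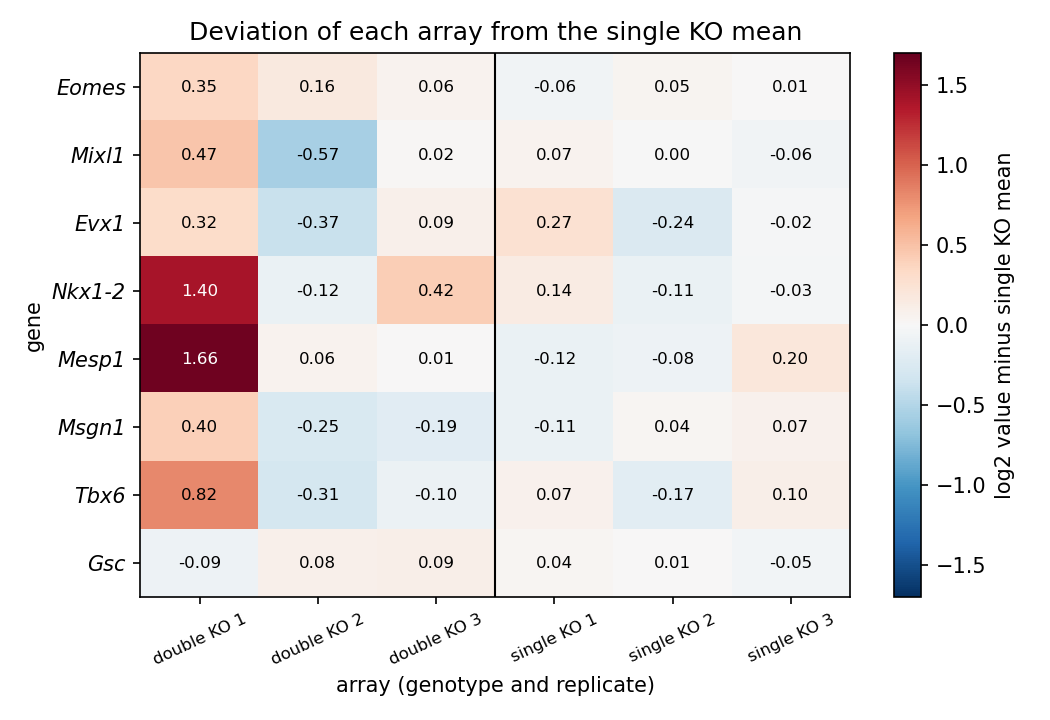
Log2 value of each regulator (rows) in each array (columns) minus the mean of the 3 single knockout arrays, with red above and blue below that mean. Double knockout replicate 1 is above 0 for all rows except Gsc, with 1.66 for Mesp1 and 1.40 for Nkx1-2, and replicate 2 is below 0 for 5 of 8.

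Whole embryos were measured, so a change in the share of streak or mesoderm cells and a change in RNA per cell cannot be told apart here. The tissue markers that moved with double knockout replicate 1 were large in size. Relative to the single knockout mean, the summed level of the markers lay at 1.42 for epiblast, 2.38 for visceral endoderm, 0.87 for maternal decidua, -7.33 for primitive red cells, -2.02 for heart muscle and -0.64 for neural plate in that array. The germ cell markers lay at 0.08 there. Of the decidua markers 3 of 6 were highest and 1 was lowest in that array, with Prl8a2, a decidual prolactin, at 11.14 there, against 8.26 to 9.63 in the single knockout. Double knockout replicate 2 lay between -0.28 and 0.26 for all 8 marker lists. Replicate 3 lay at -3.43 for primitive red cells and between -0.20 and 0.35 for the others. Pou5f1, the epiblast pluripotency factor, read 10.77, 6.69 and 7.32 in replicates 1 to 3 of the double knockout, against 6.51, 5.31 and 5.92 in the single knockout. The part of these tissues in the levels of the streak regulators was not tested.

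**Figure D4:**
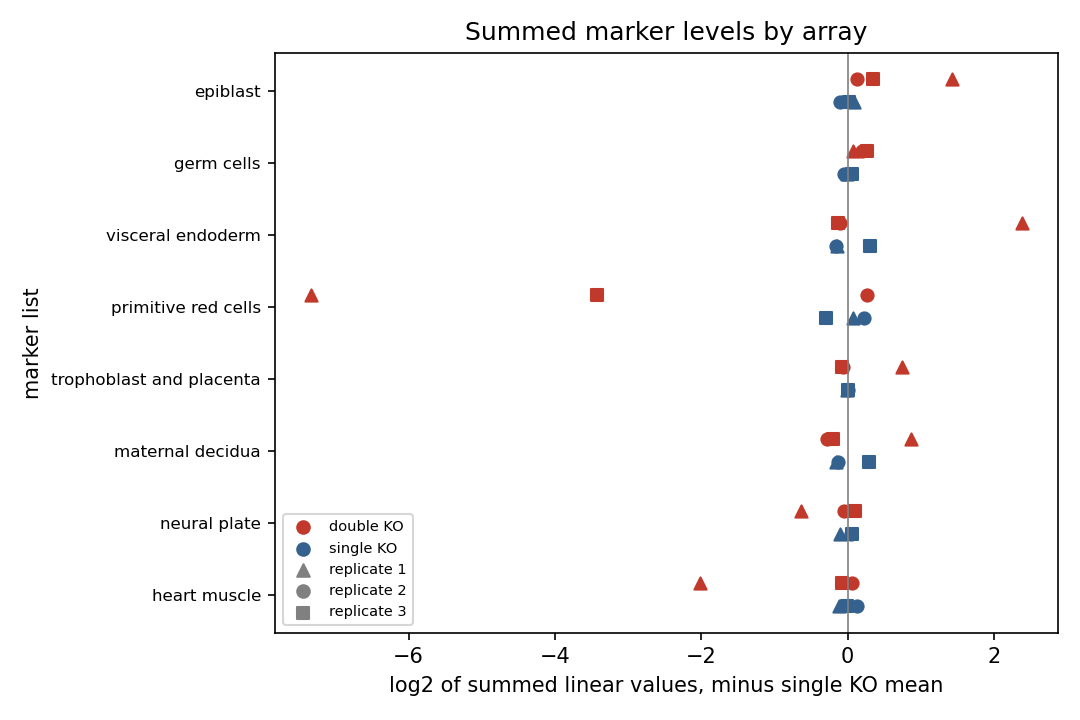
Summed level of each marker list (y axis) by array, as log2 of the summed linear values minus the single knockout mean (x axis), with the double knockout in red above the single knockout in blue and symbols for replicates. Double knockout replicate 1 lies at 2.38 for visceral endoderm and at -7.33 for primitive red cells, and the single knockout arrays lie between -0.30 and 0.31 for every list.

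The genes upstream of the regulators, those that share their territory and those of the tissues they give rise to were set beside them in 6 lists. No gene of any list passed over all genes. Of all 18193 genes, 8406 were above 0 and 9781 below with all arrays, and 8503 and 9688 without double knockout replicate 1. Signals that induce the streak were split, 6 above 0 and 5 below among 11 measured of 12, with a median of 0.12 (0.0036 without double knockout replicate 1). The double knockout was higher without overlap for 2 of 11, beside 4.85% of all genes, and lower for 0, beside 6.60%. Without replicate 1 it was higher for 3 of 11, beside 10.0%, and lower for 1 of 11, beside 12.3%. Wnt8a, a streak-stage Wnt ligand, differed by 1.82 (SE 0.77), or 0.87 without that array, with groups that did not overlap in either setting. It read 8.47, 5.44 and 5.83 in replicates 1 to 3 of the double knockout, against 5.11, 4.41 and 4.77 in the single knockout. Nodal, the TGF-beta family ligand that acts upstream of Eomes and Mixl1, differed by 0.35 (SE 0.15), or 0.20 without replicate 1. Its groups overlapped in both settings.

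Streak, tailbud and presomitic genes other than the regulators were above 0 for 10 of 24 and below 0 for 14, with a median of -0.02. The double knockout was lower without overlap for 3 of 24, beside 6.60% of all genes, and higher without overlap for 0, beside 4.85%. Wnt5b, a Wnt ligand of the streak and tailbud, read 7.497, 7.431 and 7.695 in the double knockout, against 7.935, 7.904 and 7.963 in the single knockout. All 3 double knockout arrays, replicate 1 included, lay below all 3 single knockout arrays, with a difference of -0.39 (SE 0.08, limma unadjusted p = 0.00215, adjusted p = 0.872), or -0.37 without replicate 1. Fgf17, a tailbud fibroblast growth factor, differed by -0.34 (SE 0.13), or -0.36 without replicate 1, also without overlap. Without replicate 1, 17 of the 24 genes were below 0 at a median of -0.07, and 8 of 24 had the double knockout lower without overlap, beside 12.3% of all genes, with 0 of 24 higher without overlap, beside 10.0%. Among those 8, named after their values were seen, were the Notch ligand genes Dll1 (-0.23) and Dll3 (-0.27) and the segmentation gene Ripply2 (-0.83). The rest were Wnt5a, Wnt5b, Fgf17, Nkd1 and Notum. Other segmentation genes of the list, Mesp2 (0.06), Hes7 (-0.05) and Lfng (-0.03), had overlapping groups in that setting. With replicate 1 included Dll1, Dll3 and Ripply2 differed by -0.14, -0.16 and -0.49, and the groups overlapped for each.

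Paraxial mesoderm and somite genes, which lie downstream of Tbx6 and Msgn1, were below 0 for 10 of 11 with all arrays and for 10 of 11 without double knockout replicate 1. Their medians were -0.58 and -0.10. Meox1, a somite transcription factor, read 8.37, 8.78 and 8.74 in the double knockout, against 8.98, 9.32 and 9.33 in the single knockout, and differed by -0.58 (SE 0.15). The muscle gene Myf5 differed by -1.25 (SE 0.44). Without replicate 1 these differences were -0.45 and -0.79. In double knockout replicate 1 Meox1 and Myf5 were at their lowest of the 6 arrays, while Tbx6 and Msgn1 were at their highest. Both Meox1 and Myf5 had groups that did not overlap, as did 3 of 11 genes of the list in that direction, beside 6.60% of all genes (again 3 of 11 without replicate 1, beside 12.3%), and neither passed after adjustment (limma adjusted p = 0.872 for both).

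Heart and lateral mesoderm genes, a fate of Mesp1-expressing cells, were above 0 for 10 of 12 with a median of 0.11. Without replicate 1 the count was again 10 of 12, though not of the same genes, with a median of 0.10. The double knockout was higher without overlap for 2 of 12, beside 4.85% of all genes, or for 3 of 12 without replicate 1, beside 10.0%. Isl1, a factor of cardiac progenitors, differed by 0.29 (SE 0.06), the same value as without replicate 1. Gata6, a factor of heart and endoderm, had overlapping groups and differed by 0.22 (SE 0.10), or 0.12 without that array. Endoderm and organizer genes, which Eomes, Mixl1 and Gsc act with, were above 0 for 8 of 10 in both settings, with medians of 0.24 and 0.22. With all arrays 1 of 10 was higher without overlap, beside 4.85% of all genes, and 0 lower, beside 6.60%. Without replicate 1, 2 of 10 were higher without overlap, beside 10.0% of all genes, and 2 of 10 lower, beside 12.3%. The endoderm factor genes Sox17 and Foxa1 differed by 0.47 (SE 0.18) and 0.26 (SE 0.10), or 0.27 and 0.24 without replicate 1. The groups overlapped in both settings for Foxa1 and in neither for Sox17. Node and notochord genes were above 0 for 6 of 8 measured of 9, with a median of 0.08, and for 2 of 8 without replicate 1, with a median of -0.02. With all arrays 1 of 8 was higher without overlap, beside 4.85% of all genes, and 1 lower, beside 6.60%. Without replicate 1, 2 of 8 were higher, beside 10.0%, and 1 lower, beside 12.3%. The BMP antagonist gene Nog and the Nodal co-receptor gene Cfc1 differed by 0.27 (SE 0.10) and 1.00 (SE 0.41), or 0.37 and 0.57 without replicate 1. Groups overlapped for Nog with all arrays only, and for Cfc1 in neither setting. Sox9, Lefty1 and Chrd are named after their values were seen. Sox9 was lower without overlap in both settings, at -0.28 and -0.12. Without replicate 1 Lefty1 (-1e-04) and Chrd (-4e-04) lay just below 0.

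**Figure D5:**
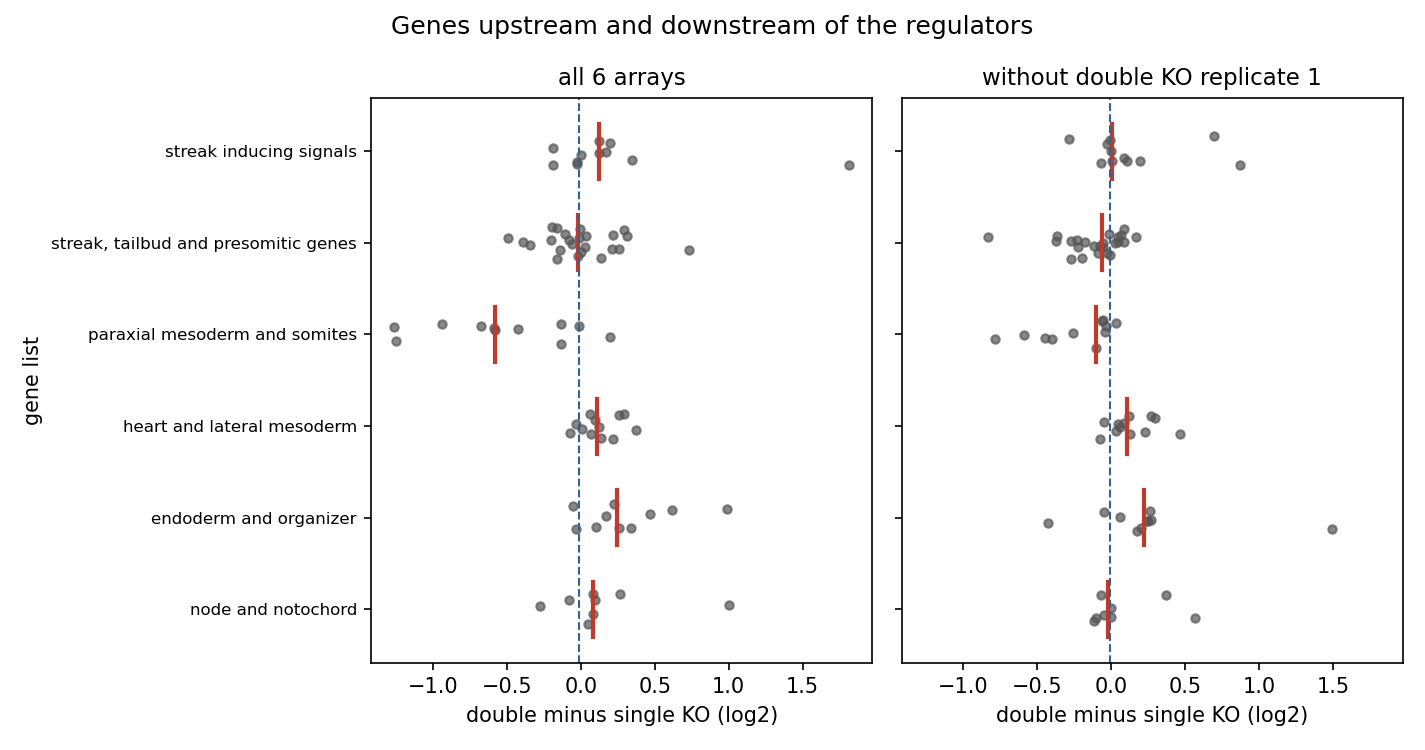
Double minus single knockout difference (x axis, log2) of each gene in 6 lists (y axis), with all 6 arrays on the left and without double knockout replicate 1 on the right. Red bars are list medians and the dashed line is the median of all genes, and the somite list has its median at -0.58 on the left and -0.10 on the right.

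The genes whose arrays ran most like a regulator were found for Mesp1, Nkx1-2 and Tbx6, which had the largest SD over the 6 arrays. Likeness was the root mean square distance over 6 arrays between values centred on each gene's mean, so double knockout replicate 1 dominates it. Nearest to Mesp1 were Cfap52 (0.04 log2 units), Folr1 (0.07) and Foxa3 (0.07). Nearest to Nkx1-2 were Eras (0.08), Gna14 (0.08) and Hesx1 (0.10), and nearest to Tbx6 were Pdpn (0.04), Myo6 (0.05) and Pgr (0.06). For all 9, double knockout replicate 1 was the array farthest above the mean, by 0.74 (Pdpn) to 1.45 (Folr1).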

How the data were processed

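RNA from whole embryos was hybridised to 1-colour Affymetrix arrays, 1 per sample, after Trizol and RNeasy extraction and biotin labelling, per the labels' protocols. The authors deposited log2 values made with RMA, per the submitters' processing notes (version and probe definitions not given in the sources used here). Array medians were 5.79 to 5.81, and the number of arrays limits precision.

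Groups and replicate numbers came from sample titles. Of the probe sets, 64 controls were left out, 34945 had 1 symbol, 932 several and 9160 none in the platform annotation. Only those with 1 symbol were used for the values per gene. The differences and SEs of the dimmer probe sets of a regulator came from a fit of all 45037 probe sets without controls. Gene identifiers of 8 of 8 measured regulators matched RefSeq (GRCm38.p6), which also gave the promoters. The genotypes were compared in limma 3.58.1 under R 4.3.3 (lmFit, eBayes, two-sided), Benjamini-Hochberg adjusted over 18193 genes. The script was tested on simulated data. Their noise was set from the arrays other than double knockout replicate 1, so the test says nothing of power with that array included.

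The regulators were given by name, and the lists were chosen with earlier results of these data known. All regulators are named, with the 2 genes of smallest unadjusted p per list, since none passed, and the 3 nearest genes of the 3 most variable regulators. The labels do not state that same-numbered arrays of the groups are pairs, so the numbers were not taken as pairs. Their deviations from the group means correlated at 0.094, -0.037 and -0.13. With 3 arrays per group, such values cannot show whether they were paired. The 15 alternatives were the replicate block, trended robust moderation, leaving out dim genes, averaging probe sets, testing all probe sets, quantile normalization, median centring, array weights, a threshold of 0.1 and leaving out each array.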

Additional observations from a re-analysis of the deposited data

How the results depend on the processing

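Under all 15 alternatives 0 of the measured regulators passed, and the smallest adjusted p of any of them was 0.706 (Msgn1 without double knockout replicate 1). The gene count of 1 (Fzd2) became 0 with the mean of the probe sets of a gene, and ran from 0 to 1 when each array was left out. It was lost without double knockout replicate 3 or any 1 of single knockout replicates 1 to 3. With the replicate block it was 1, and 2 of 6 arrays correlated best with their own number.

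Eomes, Nkx1-2 and Mesp1 kept a difference above 0 in each setting that gave them a value, and Nkx1-2 and Mesp1 ran from 0.15 to 0.91 and from 0.04 to 0.86, lowest without double knockout replicate 1. The small differences of the rest changed sign. Leaving out 1 array gave -0.27 to 0.24 for Mixl1, -0.14 to 0.20 for Evx1, -0.22 to 0.10 for Msgn1, -0.20 to 0.36 for Tbx6 and -0.0062 to 0.087 for Gsc. A further quantile normalization gave 0.0091 for Mixl1 and 0.0125 for Msgn1, median centring 0.0045 and 0.0158, and array weights -0.079 for Evx1 and -0.107 for Tbx6. The weights set double knockout replicate 1 at 0.281, the lowest, which brings these values near those without it. The cause of the other changes was not tested. With dim genes left out, Evx1, Nkx1-2 and Tbx6 were the 3 regulators tested.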
